A study of Homo sapiens with 6 samples.

Results

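The stem-loops mir-204 and mir-211 are paralogous miRNA precursors that lie in introns of related cation channel genes, TRPM3 for mir-204 and TRPM1 for mir-211. They were followed in the small RNA of MDA-MB-231, a triple-negative breast cancer cell line of mesenchymal character, grown as spheroids and as parental monolayers. The members were taken by name: every listed mature sequence, from either arm, whose name holds one of these stem-loops. This gave 2 of the 437 mature sequences listed, miR-204-5p and miR-211-5p. RefSeq annotates 4 arms for the stem-loops, and the 3p arms, miR-204-3p and miR-211-3p, were listed in neither table.

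Spheroid cells, kept as spheres in suspension without serum (3 samples), were compared with parental cells of the same line, kept attached in medium with fetal bovine serum (3 samples). Attachment and serum thus differed together and cannot be told apart here. No gene was altered and no compound was tested. Each condition has 1 deposited count table and no column per sample, and the 3 samples of each condition point to that table, so the values below have no replicate error. The sources used here do not state which samples a table covers. The spheroid table holds 1553014 reads and the parental one 539798, so that 1 read equals 0.644 reads per 1000000 of the table total (rpm) in spheroid and 1.85 rpm in parental cells. The labelled cell type was checked on miRNAs chosen after their values were seen: miR-221-3p, abundant in basal breast cancer lines, had 12245 rpm in spheroid and 13298 rpm in parental cells, and miR-222-3p of the same cluster 2576 rpm in spheroid and 1845 rpm in parental cells. Of the 5 listed sequences of the epithelial miR-200 family, miR-200b-3p had 152 reads in spheroid and 31 in parental cells (97.9 rpm and 57.4 rpm), more than the median sequence of either table. The others, miR-200c-3p, miR-141-3p, miR-200a-3p and miR-429, had 2 to 8 reads in spheroid and 0 to 5 in parental cells.

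A miRNA finds its targets mainly through its seed, bases 2 to 8 of the mature strand, and miRNAs with the same seed are predicted to repress overlapping sets of mRNAs. miR-211 is made from the pre-mRNA of TRPM1 (melastatin), a gene that the melanocyte factor MITF switches on, and it is known as a melanocyte miRNA. miR-204 is known from the retinal pigment epithelium, the lens and the pancreatic islet, and both repress the osteoblast factor RUNX2 in mesenchymal progenitor cells, shown mainly in mouse. TRPM3 and TRPM1 encode channels of the melastatin branch of the transient receptor potential family.

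The mature arms are shown first because the 5p arms are near-identical. Whether this likeness gave rise to the shared counts below was not tested. They are the RefSeq sequences (GRCh38.p14), written 5′ to 3′ with the seed in capitals.
miR-204-5p: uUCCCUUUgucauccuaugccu
miR-211-5p: uUCCCUUUgucauccuucgccu
miR-204-3p: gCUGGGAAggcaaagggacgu
miR-211-3p: gCAGGGACagcaaaggggugc

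The 5p arms have the same seed and the same 22-nucleotide length. Counted from base 1 at the 5′ end of miR-204-5p, they differ by A17U and U18C, with the base of miR-204-5p given first, so that 20 of 22 positions (90.9%) are identical. Their first 16 bases and their last 4 bases are the same. No other sequence listed in these tables holds that seed at its bases 2 to 8: 2 of 437 had it, both of them members. By edit distance, the number of single-base changes, insertions or deletions that turn one sequence into another, the pair lies at 2, whereas the next listed sequence to either, miR-6886-3p, lies at 6. The 3p arms, counted the same way, differ by U3A, A8C, G9A, A18G, C19U and U21C, with 15 of 21 positions (71.4%) identical, and their seeds differ.

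The whole stem-loops show how far this likeness extends. The 5p arm is in capitals.
mir-204: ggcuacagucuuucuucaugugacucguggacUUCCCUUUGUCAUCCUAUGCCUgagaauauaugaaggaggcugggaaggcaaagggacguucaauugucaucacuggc
mir-211: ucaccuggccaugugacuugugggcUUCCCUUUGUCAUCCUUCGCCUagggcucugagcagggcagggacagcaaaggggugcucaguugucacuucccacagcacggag

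Both stem-loops are 110 nucleotides long, and in a global alignment 63.9% of the aligned positions (76 bases) were identical. The longest run of bases held by both is 17 nucleotides, which is also the shortest read the authors kept. There is 1 such run. It is shown with its base outside the mature arm in capitals: it starts 1 base before the 5p arm and covers the first 16 bases of it.
shared run: Cuucccuuugucauccu

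In GRCh37, MIR204 lies at chr9:73424891-73425000 on the minus strand, in intron 6 (chr9:73399196-73442762) of the canonical TRPM3 transcript, which has 26 exons and the same strand. MIR211 lies at chr15:31357235-31357344 on the minus strand, in intron 7 (chr15:31355496-31358278) of the canonical TRPM1 transcript, which has 28 exons and the same strand. None of the 26 annotated TRPM3 transcripts that span MIR204 has it in an exon, and none of the 7 that span MIR211 in TRPM1. Within these loci, the miR-204-5p arm covers chr9:73424947-73424968 and the miR-211-5p arm chr15:31357298-31357319. The GRCh37 sequence of both stem-loops equals the RefSeq one.

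miR-204-5p was lower in spheroid cells. It had 22 reads in the spheroid table and 53 in the shallower parental table, which is 14.2 rpm (95% interval 8.88 to 21.4) in spheroid and 98.2 rpm (73.5 to 128) in parental cells. The intervals are exact binomial (Clopper-Pearson) ones. They cover counting error only, and reads amplified without molecular identifiers are not independent molecules. The fold, spheroid over parental, was 0.144 (0.0836 to 0.241), or 6.93 times lower, with an adjusted p of 5.57e-18 by Kal's Z-test. That test compares the reads of the 2 tables, not the conditions, and its p-values were Benjamini-Hochberg adjusted over the 436 sequences that had reads. Calls required an adjusted p below 0.05 together with a fold of more than 2. By this rule 8.94% of all sequences tested were called lower in spheroid and 4.82% higher, and of the 2 members 1 was called lower and 0 higher. The miR-204-5p call was lost when edgeR's exact test was given an assumed biological coefficient of variation of 0.4 (adjusted p 0.466), a spread these tables cannot measure.

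miR-211-5p had 17 reads in spheroid cells and 1 read in parental cells. These are 10.9 rpm (6.38 to 17.5) in spheroid and 1.85 rpm (0.0469 to 10.3) in parental cells, a ratio of 5.91 whose interval, 0.926 to 247, includes 1. Kal's Z-test gave a p of 0.0497, or 0.120 after the adjustment, so the sequence was not called. With all reads counted, the point values listed for the paralogs lay on opposite sides of 1, and the miR-204-5p fold alone passed the test. As given below, none of the reads behind the miR-211-5p value was counted as unique to it. That value therefore does not measure miR-211-5p apart from other sequences.

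Within the spheroid table the level of miR-204-5p, 14.2 rpm, and that of miR-211-5p, 10.9 rpm, had overlapping intervals. In the parental table they did not overlap. None of the miR-211-5p reads was counted as unique to it, as given below. The overlap in spheroid cells therefore does not show that the paralogs had similar levels. By reads, miR-204-5p ranked 250 of the 424 sequences with a read in spheroid cells and 151 of 367 in parental cells, where the median sequence had 39.5 reads in spheroid and 26 in parental cells. miR-211-5p ranked 262 in spheroid cells, tied at a count that 6 sequences had, and 328 in parental cells, among the 40 sequences with a single read. Per 100 reads of miR-204-5p, miR-211-5p had 77.3 reads in spheroid and 1.89 in parental cells, an odds ratio of 39.4 (5.54 to 1743, two-sided Fisher's exact test on the reads of the 2 tables, p = 3.87e-07). In the counts that follow, no miR-211-5p read is shown to be separate from miR-204-5p, so this ratio is not read as a balance of the paralogs.

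The tables give 3 counts for each sequence: all reads, reads equal to the mature sequence (exact reads) and reads counted as unique to it. The difference between all reads and unique reads is called shared here. A further column counts the exact reads that were unique, and it held every exact read of miR-204-5p, 2 of 2 in spheroid and 36 of 36 in parental cells. miR-211-5p had 0 unique reads and 0 exact reads in the spheroid table and likewise 0 of both in the parental table. All 17 of its spheroid reads and its 1 parental read were shared. A count of 0 allows up to 3 reads, which is 1.93 rpm in spheroid and 5.56 rpm in parental cells, so unique miR-211-5p was not detectable at this depth in either condition.

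The shared reads of miR-204-5p numbered 17 in spheroid cells and 1 in parental cells, the same as the miR-211-5p counts in each table. The tables do not say which sequence a shared read was shared with. If the shared reads of both are the same reads, the pair had 22 distinct reads in spheroid and 53 in parental cells (14.2 rpm and 98.2 rpm), every one of them also a miR-204-5p read, and adding the members' counts to 39 in spheroid and 54 in parental cells would count the shared reads once for each member. The odds ratio above would then set the shared reads against counts that include them, and it would not compare separate reads.

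**Figure D1:**
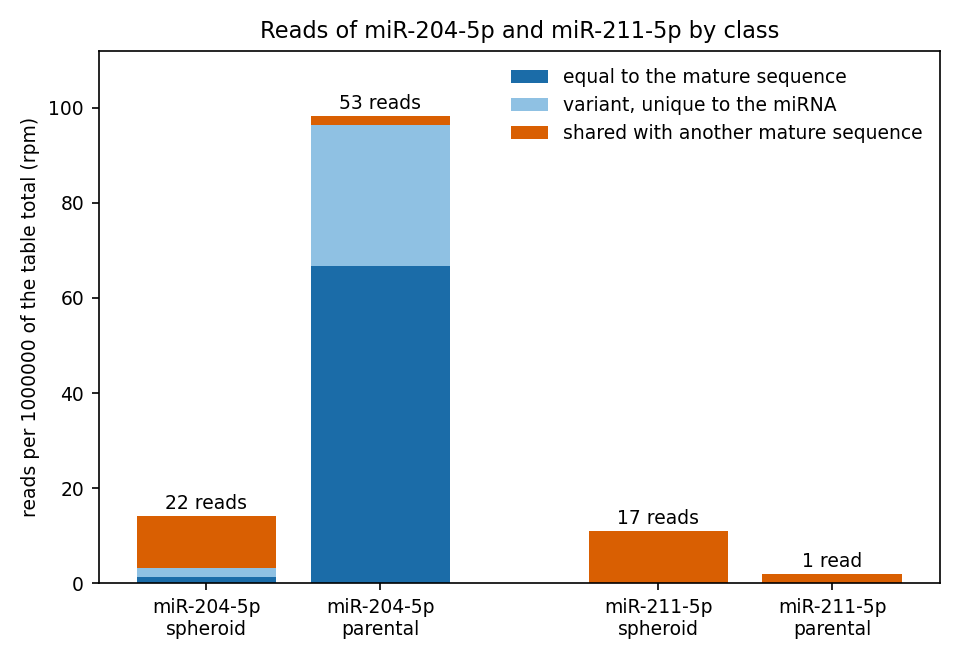
Reads of miR-204-5p and miR-211-5p in spheroid and parental cells, in reads per 1000000 of the table total, split into reads equal to the mature sequence, unique variants and shared reads, with the read count above each bar and no error bars because there is 1 table per condition. Both miR-211-5p bars are made of shared reads alone, and the spheroid bar of miR-204-5p is mostly shared reads (17 of 22), against 1 of 53 in parental cells.

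The makeup of the miR-204-5p reads differed between the spheroid and the parental table. Spread between cultures could not be measured, and the share tests below take amplified reads as independent. Their p-values therefore do not show that the culture condition changed the makeup. In spheroid cells 2 of 22 reads were exact, 3 were unique variants in length or sequence, and 17 were shared. In parental cells 36 of 53 were exact, 16 were unique variants and 1 was shared. Thus 9.09% (1.12 to 29.2) of the reads were exact in spheroid cells and 67.9% (53.7 to 80.1) in parental cells, a difference of -58.8 percentage points (two-sided Fisher's exact test on reads, p = 2.47e-06). Shared reads made up 77.3% (54.6 to 92.2) in spheroid and 1.89% (0.0478 to 10.1) in parental cells, 75.4 percentage points more in spheroid (two-sided Fisher's exact test, p = 1.47e-11). The shared counts, 17 and 1, equal the miR-211-5p counts behind the odds ratio above, so the tests are not separate results. For miR-211-5p the shared share was 100% in both tables, 17 of 17 reads in spheroid (80.5 to 100) and 1 of 1 in parental cells. With no exact or unique read in either table, Fisher's exact test could only give p = 1 for both shares, which says nothing about them.

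The classes of miR-204-5p reads had unlike folds. Exact reads were at 1.29 rpm in spheroid and 66.7 rpm in parental cells, a fold of 0.0193 (0.00225 to 0.0750). Unique variants were at 1.93 rpm in spheroid and 29.6 rpm in parental cells, a fold of 0.0652 (0.0122 to 0.228). Shared reads were at 10.9 rpm in spheroid and 1.85 rpm in parental cells, a ratio of 5.91 (0.926 to 247). The intervals of the exact and variant classes thus lay below 1, while the interval of the shared class includes 1. The exact and variant classes rest on 2 and 3 spheroid reads, and the intervals take amplified reads as independent.

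The miR-204-5p fold was therefore farther from 1 with the shared reads left out. With unique reads alone, 5 in spheroid and 52 in parental cells, it had 3.83 rpm of the unique total in spheroid and 115 rpm in parental cells, a fold of 0.0334 (0.0104 to 0.0831), 29.9 times lower (adjusted p 1.83e-28, Kal's Z-test). By that count 8.83% of the sequences tested were called lower in spheroid. With exact reads alone, 2 in spheroid and 36 in parental cells, it had 3.93 rpm of the exact total in spheroid and 191 rpm in parental cells, a fold of 0.0206 (0.00240 to 0.0800), 48.5 times lower (adjusted p 6.11e-20, Kal's Z-test). By that count 7.72% of the sequences tested were called lower. On the log2 scale the fold was -2.79 with all reads, -4.90 with unique reads and -5.60 with exact reads. miR-211-5p had no value by either count.

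**Figure D2:**
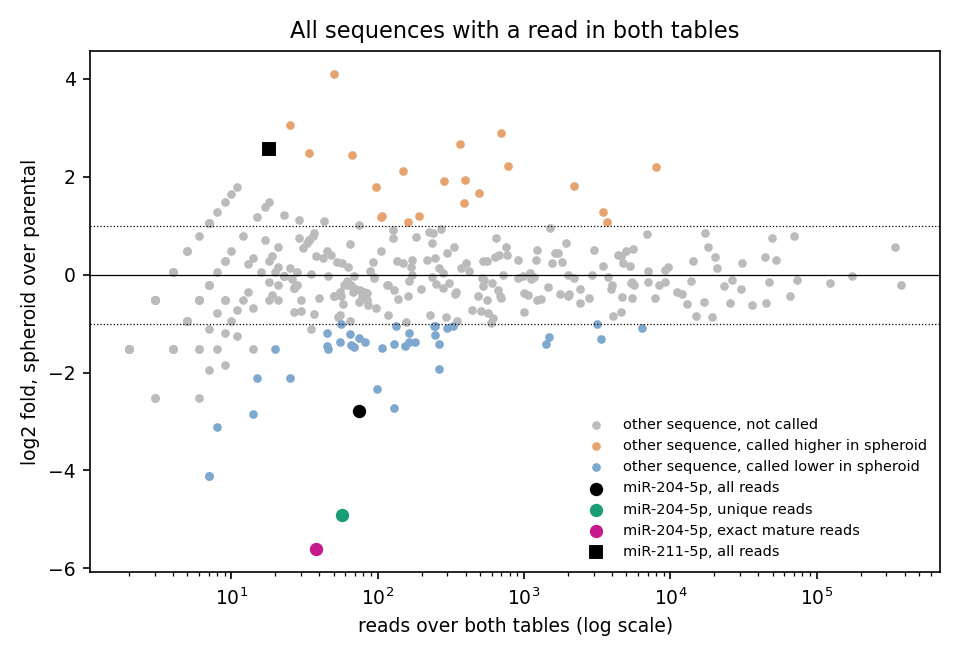
The log2 fold, spheroid over parental, against the reads over both tables (log scale) for the 355 sequences with a read in both, each point 1 sequence, with dotted lines at a fold of 2 either way. miR-204-5p lies at -2.79 with all reads, and its unique and exact reads, each scaled to the total of their own kind, lie at -4.90 and -5.60, while miR-211-5p lies among sequences of few reads at 2.56.

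Set against the other sequences, the miR-204-5p fold was the lowest of the 255 sequences that had at least 20 reads in one table and a read in both: 0 were lower and 254 higher. Among sequences with at least 100 reads over both tables, the 3 nearest to it in log2 fold were taken out of 183 compared over the 2 tables. The nearest was miR-7-5p, a neuroendocrine miRNA, which had 39 reads in spheroid and 90 in parental cells, a log2 fold of -2.73. Then came miR-33b-5p, encoded in the sterol regulator gene SREBF1, with 114 reads in spheroid and 150 in parental cells (-1.92), and miR-147b-3p, with 54 in spheroid and 53 in parental cells (-1.50). For miR-211-5p, at 2.56, the nearest were the hypoxia-linked miR-210-5p (348 reads in spheroid and 19 in parental cells, log2 fold 2.67), miR-181a-3p (667 in spheroid and 31 in parental cells, 2.90) and miR-181b-5p (719 in spheroid and 54 in parental cells, 2.21). miR-211-5p itself had under 100 reads, and its interval spans all of these.

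The split into exact, unique and shared reads was then set beside that of other sequences whose name holds 1 stem-loop. Shared reads were rare among them: 1527 of 1296131 reads in spheroid and 824 of 451449 in parental cells. Of 387 such sequences with a read in spheroid cells, 44 had any shared read, and miR-211-5p was the 1 sequence with at least 10 reads and none of them unique. In parental cells 35 of 333 had any. Of the 227 sequences with at least 20 reads in spheroid cells, miR-204-5p had the highest shared share, 77.3%, followed by let-7c-5p with 74.9%. In parental cells let-7c-5p was highest with 82.5%, and 9 of 184 sequences lay above the 1.89% of miR-204-5p.

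Over the 184 of these sequences with at least 20 reads in both tables, the shared share of miR-204-5p changed by 75.4 percentage points, spheroid minus parental. The others had a median change of 0 and ranged from -7.60 (let-7c-5p) to 5.21 points (miR-146b-5p). The exact share of miR-204-5p changed by -58.8 points, and the others ranged from -25.8 (miR-3613-5p) to 27.9 points (miR-497-5p). No other sequence changed by more in either share. In spheroid cells 147 sequences had a higher exact share than miR-204-5p and 78 a lower one, around a median of 25.2%. In parental cells 33 were higher and 150 lower, around a median of 30.3%.

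**Figure D3:**
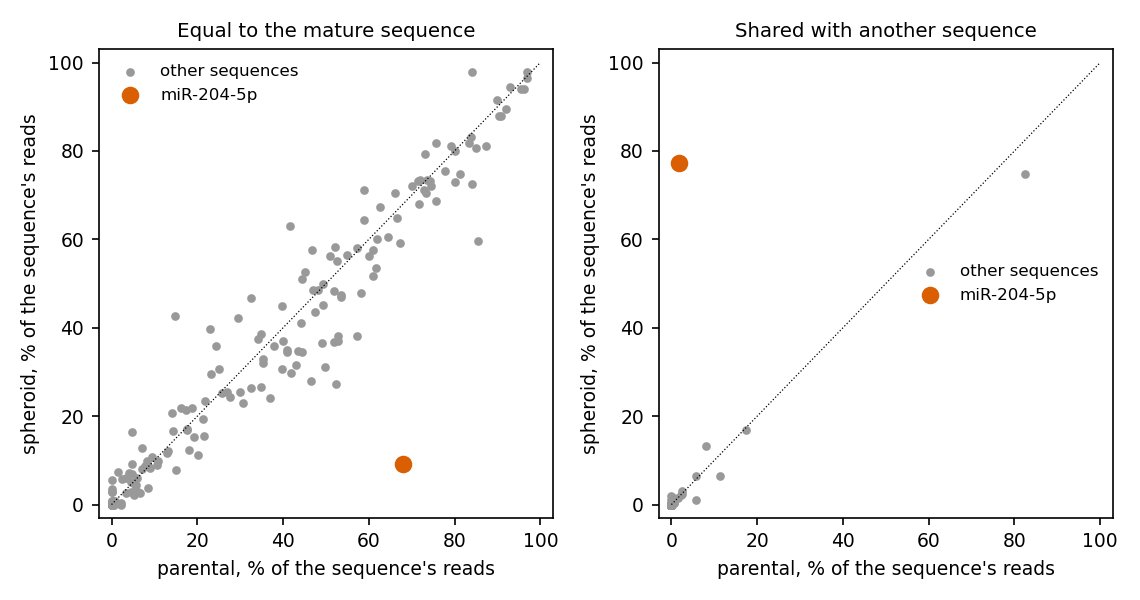
Percent of a sequence's reads that equal the mature sequence (left panel) and that are shared with another mature sequence (right panel), spheroid on the vertical and parental on the horizontal axis, for the 184 sequences of 1 stem-loop with at least 20 reads in both tables. The dotted line marks equal shares, and miR-204-5p lies off it in both panels, at 9.09% in spheroid and 67.9% in parental cells for exact reads, and at 77.3% in spheroid and 1.89% in parental cells for shared reads.

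Other near-identical miRNAs show how the shared count behaves. There were 32 other pairs of listed sequences that have the same length, differ by at most 2 bases and come from 1 stem-loop each. In the partner with more reads over both tables the shared share was at most 13.2% in spheroid and 8% in parental cells, with medians of 0.0168% in spheroid and 0.0441% in parental cells. Partners with fewer reads could have more, as let-7c-5p with 74.9% in spheroid and 82.5% in parental cells. In spheroid cells miR-204-5p had 22 reads and its partner 17, and all 17 of the partner's reads were shared ones. Whether nearness in abundance bears on the shared share was not tested. Equal shared counts above 0 in both partners, as in miR-204-5p and miR-211-5p, were found in 7 of the other pairs in spheroid and 2 in parental cells. For example, miR-192-5p and miR-215-5p, p53-responsive miRNAs with the same seed, had 8 shared reads each in spheroid cells, out of 6585 reads of miR-192-5p and 38 of miR-215-5p. In 4 of the other pairs in spheroid and 4 in parental cells the less abundant partner had no unique read. A sequence can stand in several pairs, and this partner was miR-106a-5p or miR-20b-5p each time. miR-106a-5p had 7 reads in spheroid and 2 in parental cells, all shared. Its near-copy miR-17-5p had 1480 reads in spheroid and 520 in parental cells, of which 7 were shared in spheroid and 1 in parental cells.

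**Figure D4:**
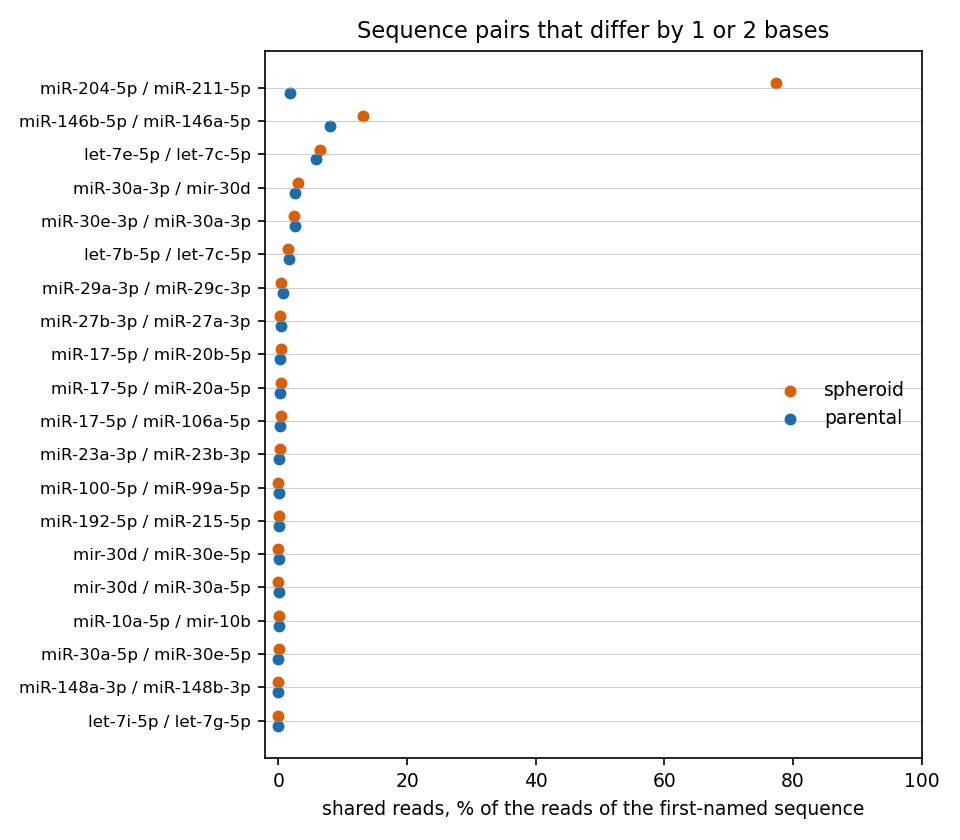
Shared reads as a percent of all reads of the first-named sequence, the more abundant of the pair over both tables, for the 20 pairs differing by 1 or 2 bases that had a shared read in it (orange spheroid, blue parental). Sequences that matched no single RefSeq arm carry the stem-loop name. miR-204-5p lies at 77.3% in spheroid and 1.89% in parental cells, and the other pairs lie at 13.2% or under.

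The settings in which these paralogs are known were read through 5 lists of other miRNAs, chosen with earlier results of these data known and given without the pair itself. For comparison, all 436 sequences gave 21 calls higher and 39 lower. The median log2 fold was -0.20 over the 369 of them with a fold, or with a bound where 1 table had 0 reads. None of the 15 stem-loops of the Xq27 cluster around mir-506 and mir-514, a mark of melanocytic cells, had a read in either table. Of 9 measured sequences of retina and pigment epithelium, 0 were called higher and 1 lower, with a median of -0.29. That one was miR-184, a miRNA abundant in cornea and lens, with 94 reads in spheroid and 85 in parental cells, a fold of 0.384 (0.284 to 0.522). Of 4 pancreatic islet sequences, 0 were called higher and 2 lower, with a median of -0.80, namely miR-184 again and miR-7-5p at 0.151 (0.101 to 0.222), while miR-375-3p, the leading islet miRNA, had 70 reads in spheroid and 25 in parental cells, a fold of 0.973.

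Among 13 measured sequences of miRNAs known to target RUNX2 in mouse osteoblasts, the median was -0.29 over the 12 with a fold or a bound. Of the 13, 0 were called higher and 1 lower. It was the sequence of mir-34c, a p53-induced stem-loop, with 4 reads in spheroid and 10 in parental cells, a fold of 0.139 (0.0318 to 0.482). Of 7 sequences from introns of other channel, receptor and pump genes, 0 were called higher and 2 lower, with a median of -0.23. These were miR-346, from an intron of the glutamate receptor gene GRID1, with 25 reads in spheroid and 20 in parental cells (fold 0.434), and miR-592, from an intron of the glutamate receptor gene GRM8, with 10 in spheroid and 15 in parental cells (fold 0.232). No measured sequence of these lists was called higher, against 4.82% of all sequences tested, and lists this short cannot tell 0 from that share. The melanocytic list had no measured sequence and so could hold no call, and miR-184 stands in 2 lists. The fold cut also matters here. miR-885-5p, of the last list, had 231 reads in spheroid and 42 in parental cells, a fold of 1.91 (adjusted p 0.000318, Kal's Z-test).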

How the data were processed

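The deposited tables hold whole counts of reads per mature sequence, 1 table per condition, with no normalization. The authors used CLC Genomics Workbench 7.0 to trim reads, keep lengths of 17 to 27 nucleotides and count them by miRBase 19 and Ensembl GRCh37 release 57 annotation. The deposited tables have 0 columns of values per sample and no columns of the authors' comparisons. How a read came to be counted as unique is not given in the sources used here.

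The tables were joined by sequence and scaled to reads per 1000000. Python 3.11.15 (pandas 2.3.3, numpy 2.4.6, scipy 1.17.1, biopython 1.88, matplotlib 3.10.9) gave the folds, Kal's Z-test (the study's test), Fisher's exact test, Clopper-Pearson 95% intervals, alignments and plots. Scale factors and tests with an assumed spread came from edgeR 4.0.16 and DESeq2 1.42.0 in R 4.3.3. Stem-loops were placed on GRCh37 with GENCODE release 44 mapped to that build. The calls by Kal's Z-test were tried on simulated counts with known folds and counting error alone. They were judged on sequences with at least 100 reads over both tables, more than either member had. The share tests were not part of this. List medians include bounds, computed against 3 reads where a table had 0. The p-values printed for the shares, from 1 test per share for each of the 2 members, are unadjusted. The members and lists were chosen with earlier results of these data known. Named were the members, any sequence with their seed, called members of the 5 lists, and for each member the 3 sequences of at least 100 reads nearest in log2 fold. let-7c-5p, miR-146b-5p, miR-3613-5p, miR-497-5p, miR-375-3p, miR-885-5p, miR-20b-5p and the pairs given as examples were named after their values were seen.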

Additional observations from a re-analysis of the deposited data

How the results depend on the processing

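The miR-204-5p fold was recomputed under 12 alternatives and the call was kept in 11, with folds from 0.0206 (exact reads) to 0.166 (DESeq2 size factors). It was lost when edgeR's exact test assumed a coefficient of variation of 0.4, where the fold of 0.144 had an adjusted p of 0.466. With 0.2 assumed the adjusted p was 7.34e-05. Summing by stem-loop name and filters of at least 10 or 50 reads kept the fold of 0.144 and changed only the adjustment. The 11 are therefore not separate checks. The miR-211-5p fold ranged from 5.03 to 6.80 under 9 alternatives and was called in 0 of them (adjusted p 0.0820 to 1). Exact reads, unique reads and the filter of at least 50 reads gave it no value, and exact or unique reads gave none for the balance of the paralogs. Sums over both arms changed no member value, since no 3p arm was listed. The sequences called higher numbered 21, with 13 at an assumed coefficient of 0.2 and 0 at 0.4. Those called lower numbered 39, with 59 with miR-200a-3p and miR-19a-3p as the scale, 24 by exact reads, 8 at a coefficient of 0.2 and 0 at 0.4. Of all calls 65% were lower, against 51.7% with TMM factors, 49.1% with DESeq2 size factors and 79.7% with those references, scales that shift every log2 fold by 0.16, 0.20 and -0.23. No paired analysis was possible because each condition has 1 table with no column per replicate, and for the same reason no replicate could be left out. With 22 and 17 spheroid reads and 53 and 1 parental reads of the members, counting error limits every value, and the spread between cultures is unknown.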
